A study of Mus musculus with 13 samples.

Results

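Replication-dependent histone genes encode the core histones H2A, H2B, H3 and H4 and the linker histone H1 that package newly made DNA. They were taken from a table of 46958 mouse genes as the rows whose symbol begins Hist1h, Hist2h, Hist3h or Hist4h, leaving out 1 row marked as a pseudogene by its name. The rule found 69 genes, and the 33 of them with 10 or more counts in 4 or more libraries are reported here. The remaining 36 stayed low: 28 never reached 10 counts, 2 were at 0 in every library, and the highest count of any was 15, for Hist1h3f. Just inside the threshold lay Hist4h4, Hist1h2an and Hist1h4m with 4 libraries each, and just outside it Hist1h4j with 3.

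The libraries hold RNA of glomeruli, the filtering units of the kidney, isolated on magnetic beads from mice aged 6 months of mixed C57/BL6, 129/SV and BALB/c background. The LCDD group (4 libraries) carries the label kFRA, a human light-chain knock-in that models light chain deposition disease, in which immunoglobulin light chains deposit in the kidney. The DH-LMP2A group (4 libraries) is labelled only by that name, known from other work as an insertion of the viral protein LMP2A into the immunoglobulin heavy-chain locus. The WT group (5 libraries) is wild type. The labels do not state whether the LCDD mice also carry DH-LMP2A. Each library pooled 3 mice, except WT 3, WT 4 and WT 5, which came from 1 mouse each. The sample titles carry a numeric code that libraries of different genotypes share and whose meaning the labels do not give. Its 4 values are called A to D here in ascending order: LCDD 1 to 4 and DH-LMP2A 1 to 4 stand under A, B, C and D in turn, WT 1 under A, WT 2 under C, and WT 3 to 5 under D. Sequencing depth was 16687509 to 30587890 counts per library. Podocyte markers (Nphs1, Wt1, Synpo and Podxl) were detected in every library, at a summed level of 5304 to 23940 CPM (counts of a gene per 1e+06 counts of the library, scaled by the TMM method).

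Most of these genes are transcribed during S phase, when DNA is copied. Their messenger RNAs have no introns and, in dividing cells, no poly(A) tail: the RNA ends just after a short stem-loop that the stem-loop binding protein (Slbp) holds, and the U7 small nuclear RNP directs the cut. Histone genes that also serve non-dividing cells can yield longer, polyadenylated transcripts. The libraries were made with a kit that selects poly(A) RNA, so the values below cover the polyadenylated or carried-over part of these transcripts, not total histone mRNA. Glomeruli are built mainly of cells that rarely divide.

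The stem-loop was found in the GENCODE M21 transcripts of 46 of the 69 genes, and in 43 it lay inside the exon that was counted. It is shown, with 5 bases on each side, for 6 genes that the results below turn on or that are the highest of their class. Capitals mark the stem-loop, written as DNA on the transcribed strand, 5′ to 3′.

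Hist1h1c: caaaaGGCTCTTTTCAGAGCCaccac
Hist2h2aa2: aaaaaGGCTCTTTTCAGAGCCaccca
Hist1h2bk: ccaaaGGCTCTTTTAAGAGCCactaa
Hist1h4h: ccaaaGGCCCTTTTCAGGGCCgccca
Hist2h4: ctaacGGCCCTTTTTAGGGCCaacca
Hist1h4i: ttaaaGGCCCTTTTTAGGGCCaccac

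The first of these forms was the commonest, in 26 genes of classes H1, H2A, H2B and H3. The form of Hist1h4h occurred in 7 H4 genes, and the form shared by Hist2h4 and Hist1h4i occurred in those 2 genes only among the 46. All 12 H4 stem-loops differed in their stem from those of the 34 matched genes of other classes. The counted exon ran more than 100 bases past the stem-loop in 14 genes, of which 8 (57.1%) were reported. It ended within 100 bases in 29 genes, of which 13 (44.8%) were reported, and the other 26 genes had no stem-loop in the counted exon, with 12 (46.2%) reported. In Hist2h4 the counted exon continued 1257 bases past the stem-loop, in Hist1h1c 840, in Hist1h4i 330 and in Hist1h2bk 30.

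Reporting differed by class. Of the H2B genes 14 of 18 were reported, of H4 8 of 13, of H1 3 of 6, of H2A 6 of 20 and of H3 2 of 12. By cluster, 25 of 56 genes of the Hist1 cluster on chromosome 13 were reported, 5 of 10 of Hist2 on chromosome 3, both Hist3 genes on chromosome 11 and the single Hist4 gene on chromosome 6. The classes also differ in how much sequence their copies share. Of the distinct 75-base stretches in each gene's GENCODE transcripts, which can be longer or shorter than the counted exons, a median of 68% in H2A and 59% in H3 also occurred in transcripts of another gene, against 42.1% in H2B, 24.6% in H4 and 0.735% in H1. More than 50% was shared in 12 H2A, 7 H3, 7 H2B, 3 H4 and 0 H1 genes. How reads matching several genes were counted is not given in the sources used here, so values of highly shared genes are uncertain, Hist2h2aa2 (100% shared, with Gm20634, Hist2h2aa1 and Hist1h2al) among them. In 19 of the 33 reported genes every library reached 10 counts.

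A small number of genes carried most of the signal. Together the 69 genes took 0.0179% to 0.0367% of each library's counts. The 3 genes with the highest mean CPM, Hist1h1c, Hist1h2bc and Hist2h2aa2, made up 60.8% of the summed CPM, and 10 genes made up 86.6%. By class, H2B held 45% of the summed CPM, H1 29.1%, H2A 18.3%, H4 5.6% and H3 2.06%. In CPM per kilobase of counted exon, Hist1h2bc (an H2B gene on chr13:23684199-23692488) led with a mean level of 77.3 over the 13 libraries (range 57 to 122.6). Hist2h2aa2 (H2A, chr3:96239749-96240276) followed with 48.7 (33.4 to 78.5) and Hist1h1c (linker histone H1.2, chr13:23738808-23740367) with 44.6 (30.7 to 72.9). These ranges overlap in all 3 pairs. Hist1h2al had 19.6, Hist1h2bg 13.6, Hist1h2bh 7.27, Hist2h2be 6.98 and Hist1h4h 6.90 on the same per-length scale, and the other 25 reported genes lay between 0.0916 (Hist4h4) and 4.82 (Hist1h4i). On that scale the replacement histones, which are made outside S phase with ordinary poly(A) tails, reached 145.5 for H3f3b, 86.2 for H3f3a, 68.4 for H1f0 and 36.6 for H2afz.

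**Figure D1:**
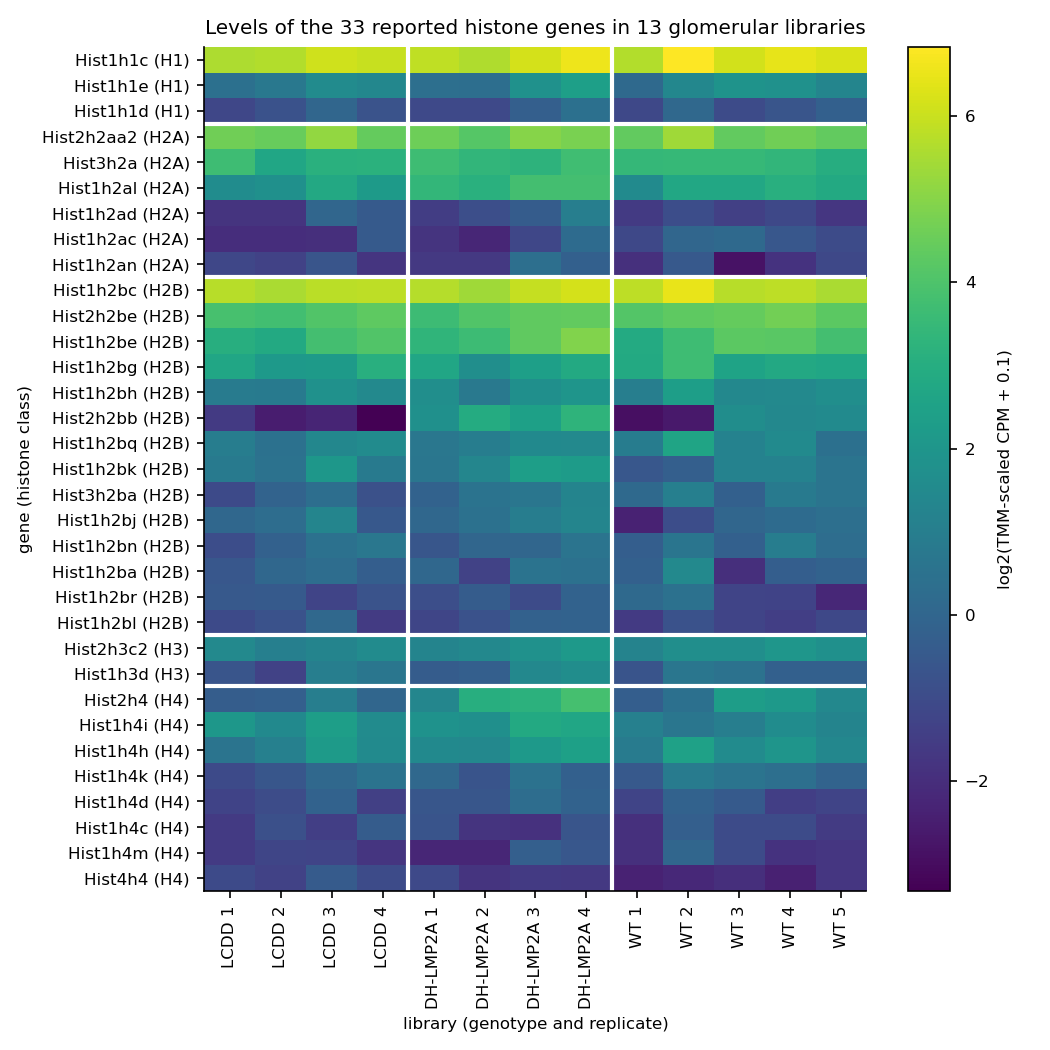
Heat map of the 33 reported histone genes (rows, grouped by class and ordered by mean level) in the 13 libraries (columns), as log2 of TMM-scaled CPM plus 0.1. The rows of Hist1h1c, Hist1h2bc and Hist2h2aa2 are high in all 13 libraries, while Hist2h2bb is dark in the 4 LCDD libraries and in WT 1 and WT 2.

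The 3 highest genes did not separate the genotypes. Hist1h1c measured 47.9, 50.8, 68.3 and 63.1 CPM in LCDD 1 to 4, 58.5, 49.6, 72.5 and 96.1 in DH-LMP2A 1 to 4, and 50.2, 113.7, 70.6, 86.9 and 75.6 in WT 1 to 5. The ranges overlap, and the highest single value was WT 2. Hist1h2bc measured 53.1, 46.7, 55.3 and 57.1 CPM in LCDD, 51.6, 42, 60.6 and 71.4 in DH-LMP2A, and 55.8, 90.3, 53.7, 55.8 and 46.2 in WT. Hist2h2aa2 measured 24.8, 22.4, 36 and 21.3 CPM in LCDD, 24.3, 17.6, 32 and 27.4 in DH-LMP2A, and 21, 41.5, 20.9, 24.7 and 20.9 in WT. WT 2 was again the highest library for both. Between LCDD and DH-LMP2A the log2 fold changes were -0.27 (95% interval -0.79 to 0.26) for Hist1h1c, -0.09 (-0.52 to 0.35) for Hist1h2bc and 0.04 (-0.51 to 0.60) for Hist2h2aa2.

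The comparison of LCDD with DH-LMP2A bears on the light-chain genotype against the other engineered genotype, and it was read beside the proliferation genes Mki67 and Top2a. Mki67, which encodes a protein of dividing cells, measured 35.8, 34.1, 28.9 and 23.4 CPM in LCDD, 3.37, 4.48, 5.42 and 6.67 in DH-LMP2A, and 4.59, 3.21, 5.61, 7.16 and 10.3 in WT. All LCDD libraries lay above all others. The log2 fold change of Mki67 was 2.62 ± 0.33 (SE, edgeR adjusted p = 0.00152), and that of Top2a, a DNA topoisomerase of dividing cells, 2.68 ± 0.34 (adjusted p = 0.00152). Against WT they were 2.30 ± 0.30 (adjusted p = 0.00177) and 2.62 ± 0.31 (adjusted p = 0.000775), and Top2a did not pass the test without the 3 single-mouse WT libraries (2.58, adjusted p = 0.0742).

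None of the replication-dependent histone genes tested was called higher in LCDD beside these genes, in libraries of poly(A) RNA. A test was possible for 31 of the 33, since Hist4h4 and Hist1h4m were removed by the filter on low counts. Against DH-LMP2A, 0 of 31 were called higher at an adjusted p under 0.05 (edgeR quasi-likelihood), where 1.3% of all 16738 genes tested were. DESeq2 called 0 higher and 3 lower, but it also called more of all genes than edgeR (counts given below). The shares of all genes here are those of edgeR. At an unadjusted p under 0.05 there were 4 of 31, all lower, where 13.1% of all genes passed in either direction. 2 of 31 (6.45%) were called lower, Hist2h2bb and Hist2h4, where 0.693% of all genes were. Hist2h2bb reached 10 counts in no LCDD library, so its inclusion is not independent of genotype. Both genes lie in the Hist2 cluster on chromosome 3, near each other. The log2 fold change was negative for 27 genes and positive for 4, with a median of -0.35 against -0.01 for all genes tested. It was negative for all 3 H1 genes (median -0.28), 5 of 6 H2A (-0.69), 12 of 14 H2B (-0.22), both H3 (-0.54) and 5 of 6 H4 (-0.47). The upper end of the 95% interval lay under 1 for 27 of the 31 and reached at most 1.36, for Hist1h4c, which is below the estimate for Mki67. With the title code as a block, 4 of 31 (12.9%) were called lower where 2.86% of all genes were, and 0 higher where 3.24% were.

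**Figure D2:**
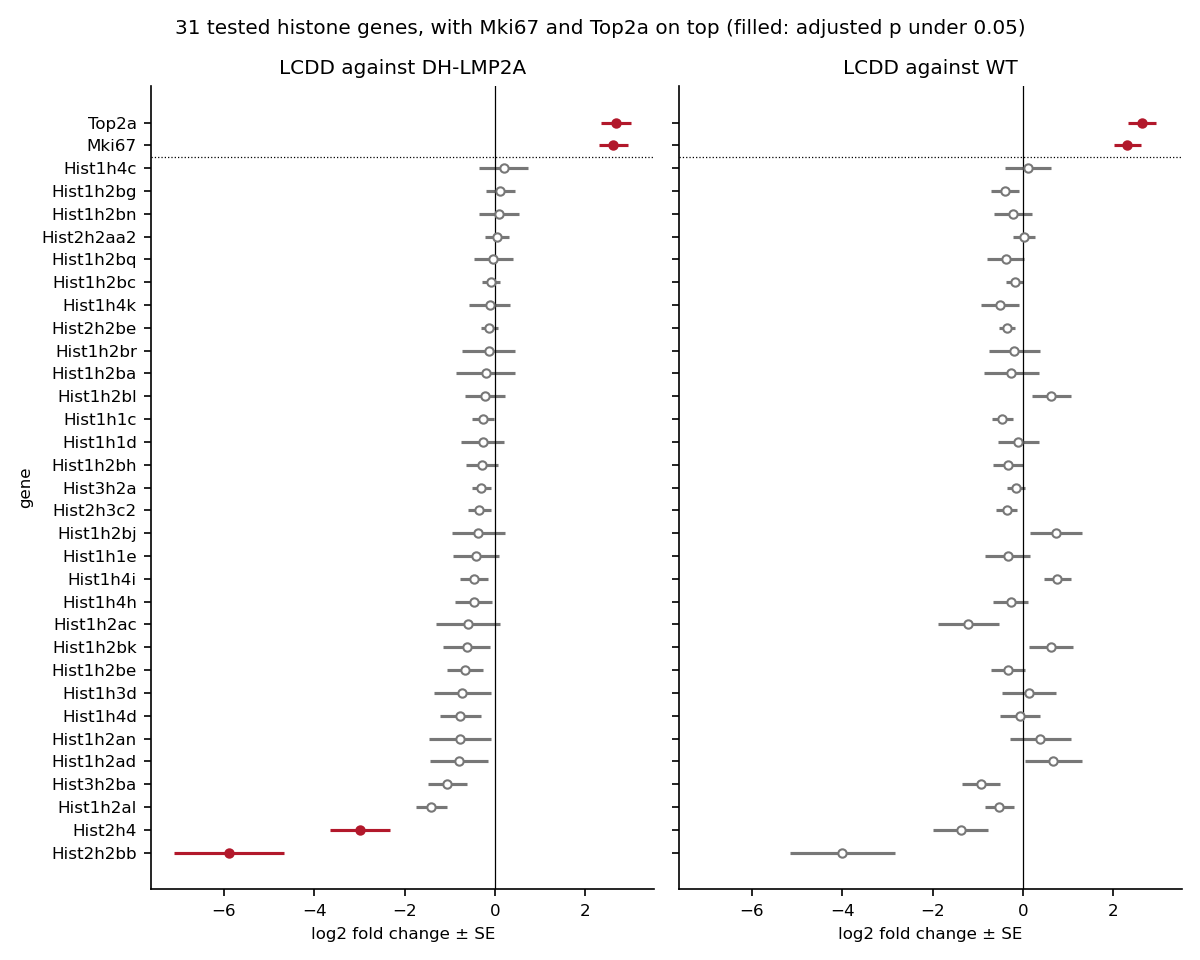
Log2 fold change with its SE for the 31 tested histone genes, below Mki67 and Top2a, in LCDD against DH-LMP2A (left) and against WT (right). Filled red points passed an adjusted p of 0.05. Among the histone genes only Hist2h2bb and Hist2h4 are filled, on the left, while Mki67 and Top2a are filled on both sides at 2.30 to 2.68.

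Hist2h2bb, an H2B gene, showed the lowest fold change of the 31. It had 6, 2, 2 and 0 counts in LCDD 1 to 4, 89, 200, 94 and 214 in DH-LMP2A 1 to 4, and 1, 1, 77, 58 and 70 in WT 1 to 5. The DH-LMP2A libraries were all above the others, the LCDD libraries all near 0, and WT was split: WT 1 and WT 2, both pools, were near 0 and the 3 single-mouse libraries were not. As CPM this was 0 to 0.230 in LCDD, 3.33 to 9.58 in DH-LMP2A and 0.0324 to 3.08 in WT. The floor of 3 counts corresponds to 0.0981 to 0.180 CPM depending on the library. Hist2h2bb reached 10 counts only in DH-LMP2A 1 to 4 and WT 3 to 5. Its place among the reported genes is therefore not independent of genotype. The log2 fold change of LCDD against DH-LMP2A was -5.89 ± 1.22 (adjusted p = 0.0277, and 0.0127 with the title code as a block), a size that rests on 10 counts in all 4 LCDD libraries together. The difference had the same sign under all 4 title codes, from -6.84 to -3.44 on a log2 scale with a prior count of 2. Leaving out any 1 of the 4 LCDD libraries or DH-LMP2A 2, 3 or 4 raised the adjusted p to between 0.0540 and 0.0894, with log2 fold changes of -6.67 to -5.47.

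The counted Hist2h2bb exons do not all belong to the H2B coding gene. In the deposited table they hold 1666 bases between 96269721 and 96279001 on chromosome 3. In GENCODE M21 the exon of Hist2h2bb covers 381 of these (22.9%) and the exons of the long non-coding gene Gm42743, on the same strand, cover 1511 (90.7%), with 226 covered by both. The counts cannot be divided between them, so the values above are those of the pair. The promoter window of Hist2h2bb (RefSeq H2bc18, chr3:96269450-96269749, plus strand, GRCm38.p6), 250 bases before to 50 after the annotated start, is shown because no other reported gene differed as much. Capitals mark CCAAT boxes (CCAAT, or ATTGG on the other strand) and the octamer ATTTGCAT.

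Hist2h2bb: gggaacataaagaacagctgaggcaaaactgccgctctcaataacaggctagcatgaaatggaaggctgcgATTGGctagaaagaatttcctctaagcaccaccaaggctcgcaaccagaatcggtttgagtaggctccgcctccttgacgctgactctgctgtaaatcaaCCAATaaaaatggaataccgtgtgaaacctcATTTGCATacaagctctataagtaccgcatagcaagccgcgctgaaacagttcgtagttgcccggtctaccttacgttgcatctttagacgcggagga

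Hist2h4, the nearest other reported gene, an H4 gene on the opposite strand (chr3:96261682-96263311), followed the same order. It had 18, 20, 36 and 23 counts in LCDD, 64, 217, 161 and 313 in DH-LMP2A, and 22, 20, 124, 97 and 64 in WT. All DH-LMP2A libraries were above all LCDD libraries, and WT 1 and WT 2 were again at the LCDD level. The CPM mean was 1.07 ± 0.585 (SD, n = 4) in LCDD, 8.41 ± 4.77 (n = 4) in DH-LMP2A and 2.77 ± 1.86 (n = 5) in WT. The log2 fold change of LCDD against DH-LMP2A was -2.98 ± 0.66 (adjusted p = 0.0386, and 0.00739 with the title code as a block), and it was negative under all 4 codes (-3.83 to -1.68). Without LCDD 1, 2 or 4 or DH-LMP2A 2, 3 or 4 the adjusted p was 0.0924 to 0.118. None of the 75-base stretches of its GENCODE transcript occurred in another gene.

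Other reported genes of the Hist2 cluster were not called. Hist2h2be (H2B) had log2 fold changes of -0.13 ± 0.19 against DH-LMP2A and -0.35 ± 0.18 against WT, Hist2h3c2 (H3) -0.35 and -0.36, and Hist2h2aa2 0.04 and 0.02, each with adjusted p of at least 0.499. The non-coding gene Gm20627, between Hist2h2aa2 and Hist2h4, had 19, 13, 13 and 9 counts in LCDD, 19, 73, 59 and 131 in DH-LMP2A and 11, 9, 35, 29 and 40 in WT (log2 fold change against DH-LMP2A -2.47, adjusted p = 0.0595, and 0.0422 with the block). It was named after its values were seen.

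**Figure D3:**
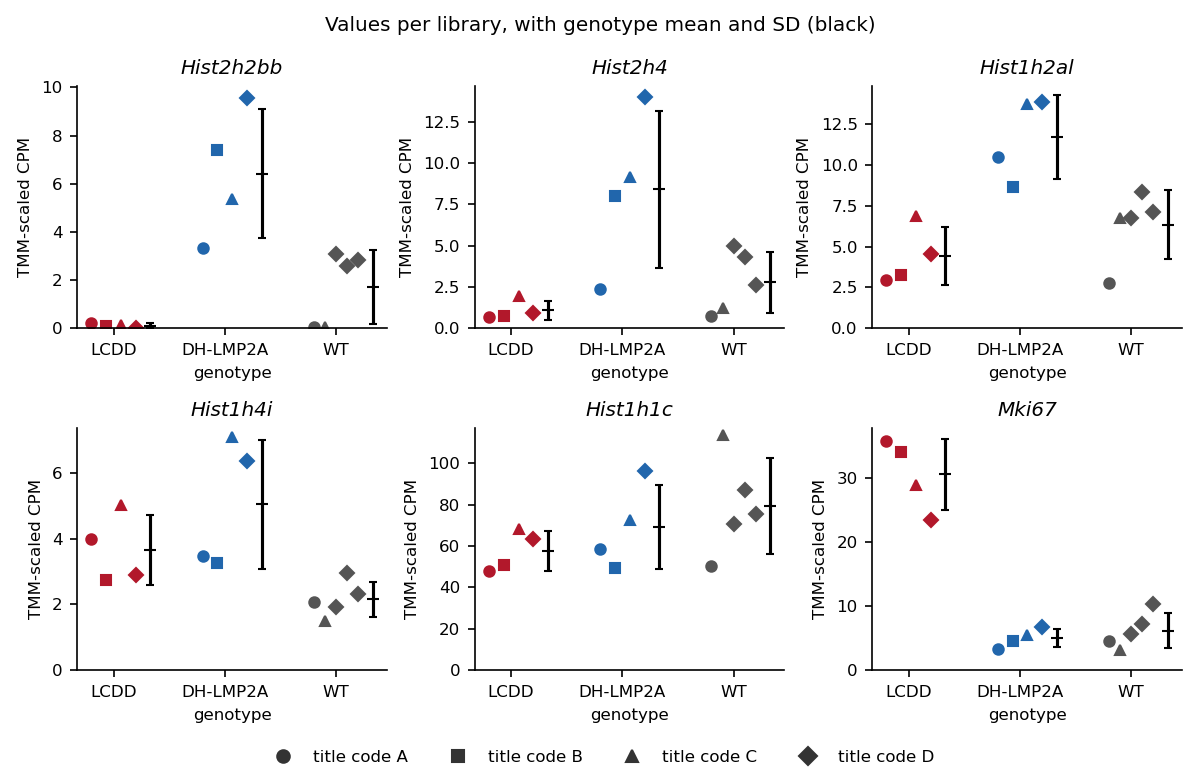
TMM-scaled CPM per library for 5 histone genes and Mki67, by genotype, with the marker shape giving the title code and black bars the genotype mean and SD. Hist2h2bb and Hist2h4 are near 0 or low in LCDD and in WT 1 and WT 2 (circle and triangle) and higher in the other libraries, while Mki67 is highest in LCDD.

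Hist1h2al was the third gene whose LCDD and DH-LMP2A libraries did not overlap. It had 77, 87, 128 and 115 counts in LCDD, 281, 234, 241 and 310 in DH-LMP2A, and 86, 109, 169, 187 and 175 in WT. DH-LMP2A was above every library of the other genotypes. Its log2 fold change against DH-LMP2A was -1.41 ± 0.34 (adjusted p = 0.0554). It was called in 4 of 15 alternatives. These were the title code as a block (-1.46, adjusted p = 0.00478), leaving out LCDD 3 (-1.70, adjusted p = 0.0256), DESeq2 (-1.43, adjusted p = 0.00169) and proximal tubule markers as a covariate (-1.64, adjusted p = 0.000929). In 7 of the 8 fits that left out 1 library it was not called, at adjusted p of up to 0.160. GENCODE M21 annotates this H2A row (chr13:51202688-51203065) as a processed pseudogene, and 45.7% of the 75-base stretches of its GENCODE transcript are shared with Gm20634, Hist2h2aa1 and Hist2h2aa2. Of all genes, 2.89% had LCDD libraries all below DH-LMP2A libraries, against these 3 of 31 (9.68%). Hist2h2bb, 1 of the 3, had no LCDD library at 10 counts.

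Hist1h2be (H2B, chr13:23583742-23621124) did not pass the test against DH-LMP2A without the block. It measured 8.17, 7.15, 13.8 and 16.8 CPM in LCDD, 9.80, 12.5, 20.2 and 30.0 in DH-LMP2A and 7.22, 12.8, 19.3, 18.9 and 13.9 in WT. LCDD was below DH-LMP2A under each code (log2 differences of -0.84 to -0.26), while the groups overlapped. Its log2 fold change was -0.66 ± 0.39 (adjusted p = 0.534) and -0.62 with the block (adjusted p = 0.0305), and it was also called with proximal tubule markers as a covariate (-0.84, adjusted p = 0.0279). No other of the 15 alternatives called it. Its counted exons run 1789 bases past the stem-loop, and 14.3% of the 75-base stretches of its GENCODE transcripts are shared with others, Hist1h1e and Hist1h2bc among them.

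Against WT, LCDD called 0 of 31 histone genes higher and 0 lower, where 1.3% and 0.544% of all genes were. At an unadjusted p under 0.05 there were 4 of 31 genes, 1 higher and 3 lower, where 11.96% of all genes passed in either direction. DESeq2, which here too called more of all genes than edgeR, called 1 lower, Hist2h2bb (log2 fold change -4.09, adjusted p = 0.00404). The fold change was negative for 22 and positive for 9, with a median of -0.26 against 0.01 for all genes. The upper 95% bound was under 1 for 21 of 31 and at most 2.04. For Hist2h2bb the edgeR log2 fold change was -4.00 ± 1.16 (adjusted p = 0.121). Without WT 1 it was -4.32 (adjusted p = 0.0291) and without WT 2 -4.32 (adjusted p = 0.0473), whereas without the 3 single-mouse libraries it was 1.12 (adjusted p = 0.939). Hist2h4 likewise went from -1.38 (adjusted p = 0.391) to 0.11 (adjusted p = 0.981) without those 3. Ddx3y, a gene of the Y chromosome, was at 11.8 CPM without TMM scaling in WT 2 and at 0 to 0.0385 in the other 4 WT libraries, at 8.23 to 100 in LCDD and at 25.2 to 89 in DH-LMP2A, so that WT 2 lay within the LCDD range. Xist, the RNA of the inactive X chromosome, was at 540.4 to 1589 CPM in WT, 0.484 to 1003 in LCDD and 39.8 to 1014 in DH-LMP2A, with overlapping ranges. The part of the sex of the mice in the comparisons with WT was not tested.

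DH-LMP2A against WT called 0 of 31 higher and 0 lower, where 0.275% and 0.352% of all genes were. At an unadjusted p under 0.05 there were 6 of 31, all higher, where 12.46% of all genes passed in either direction. Among them were Hist2h2bb, with 10 counts only in DH-LMP2A 1 to 4 and WT 3 to 5, and Hist1h2ad, with 10 counts in no WT library. The inclusion of these genes is not independent of genotype. DESeq2, which again called more of all genes than edgeR, called 1 higher, Hist1h4i. The median log2 fold change was 0.13 (17 positive, 14 negative) against 9e-04 for all genes. All DH-LMP2A libraries lay above all WT libraries for 3 of 31 genes (9.68%), Hist2h2bb, Hist1h2al and Hist1h4i, where this held for 2.64% of all genes. Hist2h2bb, 1 of the 3, met the reporting threshold only with its DH-LMP2A libraries. The log2 fold changes were 1.89 ± 0.87 for Hist2h2bb (adjusted p = 0.399), 0.88 ± 0.32 for Hist1h2al (adjusted p = 0.268) and 1.60 ± 0.58 for Hist2h4 (adjusted p = 0.273). Without the 3 single-mouse WT libraries Hist2h2bb was called, with a log2 fold change of 7.02 (adjusted p = 0.0152) against 2 WT libraries that had 1 count each, a size that is no bound.

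Hist1h4i (H4, chr13:22040636-22041362) measured 3.48, 3.26, 7.08 and 6.36 CPM in DH-LMP2A, 2.07, 1.48, 1.92, 2.95 and 2.31 in WT, and 3.99, 2.75, 5.01 and 2.88 in LCDD. DH-LMP2A did not overlap WT, and LCDD overlapped both. Against WT its log2 fold change was 1.22 ± 0.30 in DH-LMP2A (adjusted p = 0.1002, DESeq2 1.21, adjusted p = 0.00725) and 0.76 ± 0.30 in LCDD (adjusted p = 0.291), 2 comparisons that share the WT libraries. Its nearest reported neighbours on either side are Hist1h2bk (chr13:22035870-22036345) and Hist1h2bj (chr13:22043214-22043676), both H2B genes on the opposite strand, which were named after their values were seen. Hist1h2bk measured 1.497, 2.41, 5.03 and 4.61 CPM in DH-LMP2A, 0.582, 0.741, 2.16, 2.19 and 1.42 in WT, and 1.73, 1.32, 4.09 and 1.66 in LCDD. Its log2 fold change of DH-LMP2A against WT was 1.24 ± 0.49 (adjusted p = 0.324) and that of Hist1h2bj 1.11 ± 0.57 (adjusted p = 0.457), with overlapping groups in both. The 3 promoter windows (RefSeq H2bc12, H4c9 and H2bc11, GRCm38.p6, at chr13:22035571-22035870 on the plus strand, 22041313 to 22041612 on the minus strand and 22042948 to 22043247 on the plus strand) are shown for this comparison. Capitals mark matches to the CCAAT box, to the TATA box (TATAAA) and to the octamer on either strand.

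Hist1h2bk: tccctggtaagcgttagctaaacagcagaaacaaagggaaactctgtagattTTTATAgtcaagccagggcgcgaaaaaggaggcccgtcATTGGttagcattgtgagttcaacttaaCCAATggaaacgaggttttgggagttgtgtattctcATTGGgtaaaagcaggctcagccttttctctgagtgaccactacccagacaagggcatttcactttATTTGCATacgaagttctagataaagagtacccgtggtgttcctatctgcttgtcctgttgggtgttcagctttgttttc
Hist1h4i: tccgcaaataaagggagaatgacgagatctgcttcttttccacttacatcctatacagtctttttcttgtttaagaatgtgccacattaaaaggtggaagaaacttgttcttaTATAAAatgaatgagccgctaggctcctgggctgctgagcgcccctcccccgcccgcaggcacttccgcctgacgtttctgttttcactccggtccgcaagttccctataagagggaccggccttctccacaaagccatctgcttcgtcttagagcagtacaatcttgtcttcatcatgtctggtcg
Hist1h2bj: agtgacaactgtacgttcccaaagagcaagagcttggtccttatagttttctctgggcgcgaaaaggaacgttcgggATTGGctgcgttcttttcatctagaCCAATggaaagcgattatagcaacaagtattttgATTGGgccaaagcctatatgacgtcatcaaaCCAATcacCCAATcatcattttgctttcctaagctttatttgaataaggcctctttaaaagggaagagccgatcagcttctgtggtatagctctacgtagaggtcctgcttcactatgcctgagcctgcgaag

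Hist1h2bk had 3 CCAAT matches, 1 TATAAA match and 1 octamer, Hist1h2bj 5 CCAAT matches and no match of the other motifs, and Hist1h4i 1 TATAAA match and none of the others. Across the 62 of 69 histone genes with a RefSeq window, 85.5% held CCAAT, where 41.1% of all 27025 windows did. TATAAA was found in 56.5% against 15.7%, and ATTTGCAT in 22.6% against 1.97%. CCAAT was present in all windows of classes H1, H2A, H2B and H3 and in 25% of H4. ATTTGCAT, the binding motif of octamer factors, was found in 43.8% of H2B and 38.9% of H2A windows and in 0 of H1, H3 and H4. Both strands were searched, and no motif contains another. A match is a description of the sequence only.

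The machinery that makes histone mRNA showed few differences. Of 26 tested genes for histone transcription and 3′ end formation, 1 was called higher and 0 lower in LCDD against DH-LMP2A, and 1 higher and 1 lower against WT. The gene called higher in both was Zfp473 (chr7:44731481-44751050), a zinc finger protein of the U7 small nuclear RNP. It measured 3.95, 2.90, 5.66 and 5.56 CPM in LCDD, 0.748, 0.778, 1.09 and 0.851 in DH-LMP2A, and 0.744, 0.494, 0.881, 0.716 and 0.649 in WT. Every LCDD library was above every other library. Its log2 fold change was 2.38 ± 0.28 against DH-LMP2A (adjusted p = 0.000852) and 2.68 ± 0.26 against WT (adjusted p = 0.000201). Of 75 other genes tested within 1e+06 bases of Zfp473, 6 and 7 were called in these comparisons. Among all 16738 genes tested, 334 and 308 were. Slbp, named for its role and not by the rule, measured 52.7, 34.4, 31.6 and 38.9 CPM in LCDD and 37.1, 29.3, 26.3 and 28.2 in DH-LMP2A. Its log2 fold change of 0.38 against DH-LMP2A did not pass the test (adjusted p = 0.29). In WT it measured 30.5, 28.2, 30.2, 28.8 and 29.7 CPM, below every LCDD library. Against WT, 2 of the 26 genes were called higher in LCDD with the title code as a block, and 2 by DESeq2.

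Coil, which encodes the scaffold protein of Cajal bodies, was lower in both engineered genotypes than in WT. It measured 7.21, 6.89, 9.91 and 7.42 CPM in LCDD, 7.63, 7.15, 5.82 and 6.22 in DH-LMP2A, and 69.8, 70.4, 23.9, 25.1 and 24.0 in WT. No WT library overlapped the others, and within WT the pools WT 1 and WT 2 stood above the 3 single-mouse libraries. On the log2 scale the fold change was -2.44 ± 0.37 in LCDD (adjusted p = 0.00479) and -2.66 ± 0.37 in DH-LMP2A (adjusted p = 0.00666), again sharing the WT libraries.

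Of 18 histone chaperones, Hjurp, which loads the centromeric histone Cenpa, was the only one called by edgeR. It was lower in LCDD, with 83.0, 59.7, 50.04 and 95.2 CPM, than in DH-LMP2A, with 108.8, 155.7, 163.9 and 139.9. This gave a log2 fold change of -0.98 ± 0.19 (adjusted p = 0.0183). WT was at 81.8 to 98.8 CPM. LCDD 1 and LCDD 4 lay within that range, LCDD 2 and LCDD 3 below it and all DH-LMP2A libraries above it. Without LCDD 2 or DH-LMP2A 2, 3 or 4 the adjusted p was 0.0532 to 0.0698. Of 12 replacement histones, 0 were called by edgeR or by DESeq2 in any of the 3 comparisons, with 0, 0 and 3 at an unadjusted p under 0.05. Among all genes tested, 13.1%, 11.96% and 12.46% were at such a p. H2afz was called higher in LCDD than in DH-LMP2A with the title code as a block.

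Of 24 genes of the S-phase programme, 4 were called higher in LCDD against DH-LMP2A and 5 against WT, with 0 lower. Of all genes tested, 1.3% were called higher in each of these comparisons. The median log2 fold changes were 0.36 and 0.41, beside -0.35 and -0.26 for the histone genes and -0.01 and 0.01 for all genes tested. Mcm6, a subunit of the replicative helicase, measured 26.5, 34.4, 17.9 and 18.7 CPM in LCDD and 5.95, 4.71, 3.94 and 3.36 in DH-LMP2A. Its log2 fold change was 2.44 ± 0.28 (adjusted p = 0.00075). In WT it was at 25.0, 21.9, 14.9, 12.6 and 17.5 CPM, so that the ranges of LCDD and WT overlapped (0.41 ± 0.25, adjusted p = 0.599) and DH-LMP2A was below it (-2.03 ± 0.27, adjusted p = 0.0044).

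Cdc6, which loads the helicase, Uhrf1, which couples DNA methylation to replication, and Rrm2, a subunit of ribonucleotide reductase, were called higher in LCDD in both comparisons. Against WT the log2 fold changes were 1.91 ± 0.34 for Cdc6 (adjusted p = 0.0121), 1.76 ± 0.32 for Uhrf1 (adjusted p = 0.0121) and 2.15 ± 0.41 for Rrm2 (adjusted p = 0.0167, and 0.0568 without WT 3 or 0.0506 without WT 5). Against DH-LMP2A they were 1.54, 1.45 and 1.89, with adjusted p of 0.0484, 0.0472 and 0.0469. These 3 calls were lost without any 1 of LCDD 1, LCDD 2 and DH-LMP2A 2, 3 and 4, and for Cdc6 also without LCDD 3 or 4 and for Uhrf1 without LCDD 3, at adjusted p of up to 0.179. Tk1 (thymidine kinase, 2.10 ± 0.48, adjusted p = 0.0427) and Gins2 (of the helicase complex, 1.86 ± 0.41, adjusted p = 0.0362) were called against WT only. Their adjusted p rose to at most 0.148 and 0.125 without 1 library, for Tk1 without LCDD 1, 2 or 3 or WT 3, 4 or 5, and for Gins2 without LCDD 1 or 2 or WT 2, 3, 4 or 5. Without the 3 single-mouse WT libraries none of the 5 genes called against WT passed (adjusted p of 0.345 to 0.458).

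Histone levels moved with the title code in all 3 genotypes. The summed level of the 69 genes in CPM without TMM scaling was 191.8, 179.1, 255.1 and 234 in LCDD under codes A, B, C and D, and 224, 211.8, 301.8 and 367.2 in DH-LMP2A. In WT it was 195.4 under A, 345.3 under C, and 238.8, 274.9 and 228 under D. The libraries of codes C and D were above those of A and B in LCDD and DH-LMP2A. In WT, which had no library under B, they were above the 1 library of A. Within each code DH-LMP2A was above LCDD. A term for the code, chosen after the data were seen and fitted beside genotype, was called for 7 of 31 histone genes (22.6%), where it was for 18.6% of all genes. Hist1h2be, Hist1h1e, Hist1h3d, Hist1h4h, Hist1h1c, Hist1h2al and Hist2h2aa2 were those 7. The estimates for both C and D were above A in 27 of the 31, and in 38.7% of all genes. The medians were 1.03 and 0.62 on the log2 scale, beside 0.0065 and -0.0043 for all genes.

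**Figure D4:**
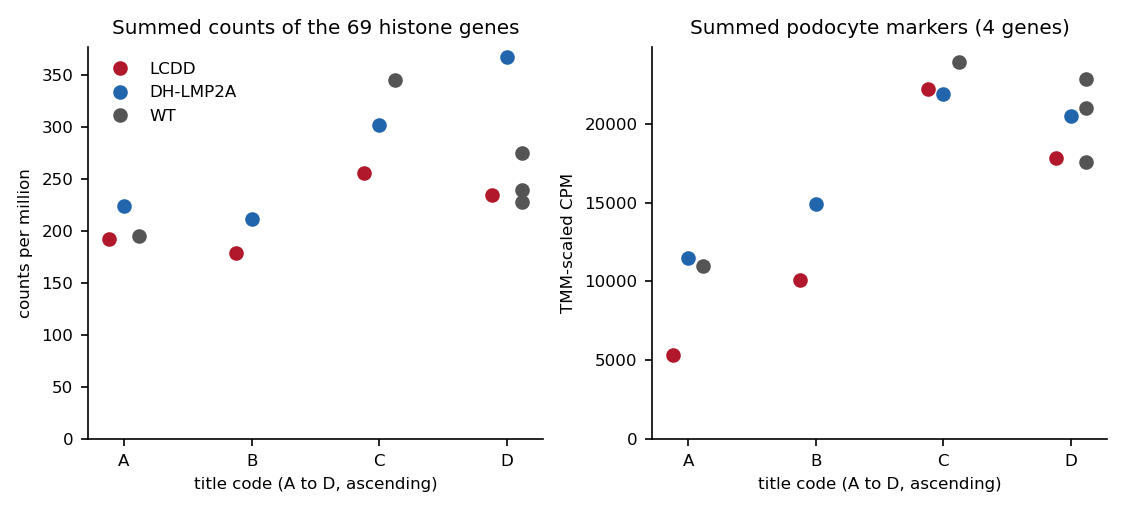
Summed level of the 69 histone genes in CPM without TMM scaling (left) and summed CPM of 4 podocyte markers (right) by title code, 1 point per library, coloured by genotype. Both are lower under A and B than under C and D in LCDD and DH-LMP2A, and lower under A than under C and D in WT, which has no library under B.

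Podocyte markers moved in the same direction. Their summed CPM was 5304, 10110, 22210 and 17850 in LCDD 1 to 4, 11480, 14890, 21870 and 20500 in DH-LMP2A 1 to 4, and 11010, 23940, 21020, 22860 and 17570 in WT 1 to 5. Of the 4 markers 0 were called in any comparison by edgeR without the block or by DESeq2. With the block, Nphs1 was called lower in LCDD than in DH-LMP2A (log2 fold change -0.93, adjusted p = 0.0384), the comparison in which 4 histone genes were called lower. Proximal tubule markers (8 genes) summed to 471.2 to 1463 CPM in LCDD, 391.9 to 3100 in DH-LMP2A and 95.5 to 2100 in WT, with 1 of 8 called by edgeR, Kap, higher in DH-LMP2A than in WT. In LCDD against WT its libraries did not overlap, and it was called with the block (log2 fold change 2.42, adjusted p = 0.0455), while DESeq2 called 1 of the 8 higher there. Of 8 leukocyte markers edgeR called Jchain, lower in LCDD and in DH-LMP2A against WT. Of 5 mesangial markers 0 were called by edgeR without the block. With it, in LCDD against DH-LMP2A, Itga8 was called higher (0.83, adjusted p = 0.0216) and Ren1, renin of the juxtaglomerular cells, lower (-2.03, adjusted p = 0.0296), and DESeq2 called 1 of the 5 higher and 1 lower. Of 5 glomerular endothelial markers 0 were called by edgeR without the block or by DESeq2, and Kdr and Cdh5 were called lower in DH-LMP2A against WT with the block. Of 5 markers each of the distal tubule segments and of erythroid cells 0 were called by edgeR or DESeq2. The part of podocyte share, tubule content or the code in the histone values was not tested. In bulk RNA fewer cells of a type and less RNA per cell cannot be told apart.

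The remaining reported genes were Hist1h1d, Hist1h1e, Hist1h2ac, Hist1h2ad, Hist1h2an, Hist1h2ba, Hist1h2bl, Hist1h2bn, Hist1h2bq, Hist1h2br, Hist1h3d, Hist1h4c, Hist1h4d, Hist1h4k, Hist1h4m, Hist2h3c2, Hist3h2a, Hist3h2ba and Hist4h4. None of those tested was called in any of the 3 comparisons. Hist4h4 had 10, 8, 12 and 10 counts in LCDD, 10, 5, 4 and 5 in DH-LMP2A and 3, 2, 4, 2 and 5 in WT, all LCDD values being above all WT values. In a fit without the filter on low counts its log2 fold change against WT was 1.59 (adjusted p = 0.114). It reached the reporting threshold through 3 LCDD libraries and 1 DH-LMP2A library, so its position above the threshold is not independent of genotype.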

How the data were processed

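Poly(A) RNA of bead-purified glomeruli was read from 2 ends at 75 bases, from 500 ng of total RNA and with a stranded kit, per the labels. Raw read counts per gene and exon lengths are used as deposited. The submitters' processing notes name STAR 2.4.0a, featureCounts, Subread 1.5.0-p3 and DESeq2 and the builds mm10 and GRCm38. The strand setting and the treatment of reads matching several genes are not given in the sources used here. All 13 count columns were used and 0 were left over.

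The edgeR 4.0.16 function filterByExpr (minimum count 10) kept 16738 genes. Counts were scaled by TMM, 1 quasi-likelihood fit held all 13 libraries with a coefficient per genotype, and p-values were adjusted by Benjamini-Hochberg over all genes tested. A gene was called at an adjusted p under 0.05. The SE was taken as the absolute fold change on the log2 scale over the root of edgeR's F, and 95% intervals use the t distribution with edgeR's degrees of freedom. The scripts were tested on simulated data. Sequences came from GENCODE M21 transcripts and RefSeq promoter windows. All 69 genes matched GENCODE by symbol, and 62 had a RefSeq window (GRCm38.p6).

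The members, gene lists and tests were chosen with earlier results of these data known. Genes named are reported members called in any comparison with or without the title code as a block, the 8 with the highest level per length, Hist2h2bb, Mki67, Top2a, and up to 6 called genes of each companion list. Replicates were numbered in order of deposition within genotype and were not used to pair libraries. The title code was: deviations from the genotype means correlated at 0.153 to 0.593 for the 4 same-code pairs of LCDD and DH-LMP2A, but at -0.165 to 0.400 for LCDD and WT and -0.159 to 0.568 for DH-LMP2A and WT. Pairs of LCDD and DH-LMP2A with different codes had a mean of -0.139. Some of these reached the range of same-code pairs, among them LCDD 2 with DH-LMP2A 1 (0.524) and LCDD 3 with DH-LMP2A 4 (0.458). One podocyte marker is not reported here, and the podocyte values rest on 4 genes. The libraries are pools or single mice. The p-values set a difference against the spread between libraries, estimated over pools and single mice together. Chi-square values per degree of freedom between libraries of a genotype were at least 12.6, so none was counted as a duplicate. The alternatives were DESeq2 1.42.0, RLE size factors, no filter, a mean of at least 1 CPM, only the genotypes compared, the block, a proximal tubule covariate, leaving out each library, and dropping the 3 single-mouse WT libraries. The floor of 3 counts covers counting error only, since reads carried no molecular identifiers.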

Additional observations from a re-analysis of the deposited data

Results flagged for a closer look

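In 4 of 45 combinations of gene and genotype examined, 1 library stood apart from the rest by Dixon's gap criterion, where chance gives about 1 in 20, or 2.25. That figure holds for independent combinations and like libraries. Genes measured in the same libraries are not independent, and WT mixes pools with single mice, so 4 cannot be set against 2.25. All were WT libraries. Hist1h2al was at 1.52 log2 CPM in WT 1, where the other WT libraries were at 2.77 to 3.08. In WT 2, Hist1h2bc was at 6.50 (others 5.53 to 5.80), Hist2h2aa2 at 5.38 (others 4.39 to 4.63) and Hist1h2bg at 3.69 (others 2.57 to 2.84). WT 2 was the shallowest library, with 16687509 counts.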

How the results depend on the processing

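The count of histone genes called higher in LCDD was 0 under every alternative run, in both comparisons. The calls of Zfp473, Mki67, Mcm6 against DH-LMP2A and Coil held under every alternative run. The histone genes called lower in LCDD against DH-LMP2A numbered 2 and ran from 0 to 2 when 1 library was left out, as named in the report. They numbered 4 with the proximal tubule covariate. DESeq2 called 1 lower against WT and 1 higher in DH-LMP2A against WT, where the tubule covariate called 6 and a fit without WT 3 to 5, the single-mouse libraries, called Hist2h2bb (1 gene, log2 fold change 7.02). Leaving out 1 library gave 0 to 1 lower against WT, the 1 being Hist2h2bb without WT 1 or WT 2.

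With the title code as a block, LCDD against DH-LMP2A gave 1021 genes called and not 334, 4 histone genes lower and 10 companion genes. LCDD against WT gave 536 and DH-LMP2A against WT 562, with 4 histone genes higher (Hist2h4, Hist1h2be, Hist1h2al and Hist1h4i). In the comparisons with WT the code does not meet the pairing criterion. The block turned the log2 fold change of Hist1h2be in LCDD against WT to 0.0554.

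Of all genes, DESeq2 called 812, 726 and 458 in LCDD against DH-LMP2A, LCDD against WT and DH-LMP2A against WT, where edgeR called 334, 308 and 105. Fits of only the genotypes compared called 213 and 185 in the first and second. The tubule covariate gave 919 in the first and 577 in the last. Without the single-mouse libraries 54 were called in LCDD against WT and 69 in DH-LMP2A against WT. Leaving out 1 library gave 113 (without DH-LMP2A 2) to 484 (without DH-LMP2A 1), 159 (without WT 4) to 441 (without WT 1) and 29 (without DH-LMP2A 2) to 407 (without WT 1).

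Companion genes called in LCDD numbered 6 against DH-LMP2A and 7 against WT. Against DH-LMP2A they were 3 without the filter, 2 in the fit of only the genotypes compared and 11 with the tubule covariate, and against WT 4 in the fit of only the genotypes compared, 2 without the single-mouse libraries and 3 with the tubule covariate. Leaving out 1 library gave 2 to 6 and 4 to 8.

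Direction changed only for values that did not pass the test in the edgeR fit of all 13 libraries by genotype alone. Some of these were called in other alternatives. They include Hist2h2bb in LCDD against WT (DESeq2 -4.09, adjusted p = 0.00404) and Hist1h2be in DH-LMP2A against WT (block 0.67, adjusted p = 0.0341). In LCDD against WT without the single-mouse libraries Hist2h4 was at 0.11, Hist2h2bb at 1.12 and Hist1h2be at 0.17. With the tubule covariate Hist1h2be was at 0.32 and Hist1h2al at 0.0262 there, and Hist2h2aa2 at -0.0327 against DH-LMP2A. In DH-LMP2A against WT Mki67 was at 0.31 without the single-mouse libraries. Leaving out 1 library moved LCDD against DH-LMP2A from -0.20 to 0.0446 for Hist1h2bc, -0.15 to 0.18 for Hist2h2aa2 and -0.10 to 0.27 for Hist1h2bg. It moved DH-LMP2A against WT from -0.025 to 0.54 for Hist1h2be and from -0.25 to 0.0803 for Top2a. The cause of these changes was not tested. The 36 genes under the reporting threshold had at most 15 counts in any library.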

Other observations

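Within 1e+06 bases on either side of Zfp473, 6 of 75 other genes tested were called in LCDD against DH-LMP2A, 7 against WT, and 0 in DH-LMP2A against WT. Of all 16738 genes tested, 334, 308 and 105 were called in these 3 comparisons. Around Coil 1 of 16 was called in LCDD against DH-LMP2A, 3 in LCDD against WT and 2 in DH-LMP2A against WT. Around Cdc6, Tk1 and Gins2 the counts in LCDD against DH-LMP2A were 2 of 35, 1 of 32 and 2 of 19, and around Hjurp, Mcm6, Rrm2 and Uhrf1 they were 0. The windows were chosen after the data were seen.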
